A study of Mus musculus with 195 samples.

Results

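The 10 genes described here are the cyclins, cyclin-dependent kinases (CDKs) and CDK inhibitors that act in the G1 phase of the cell cycle. They were chosen by name: the D cyclins Ccnd1, Ccnd2 and Ccnd3, the E cyclins Ccne1 and Ccne2, the kinases Cdk2, Cdk4 and Cdk6, and the inhibitors Cdkn1a (p21) and Cdkn1b (p27). All 10 were in the table of molecule counts, which held 19736 genes. The counts came from BATSeq, a single-cell method that reads the 3′ ends of polyadenylated RNA and counts each original molecule once through a molecular barcode. Because each transcript gives 1 tag at its 3′ end, the level of a gene does not scale with the length of its transcript.

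Mouse cells of 3 kinds were measured. All of them came from 46C, an embryonic stem cell line that carries a GFP reporter in the Sox1 gene and derives from the E14tg2a line. ESC-2i were embryonic stem cells in serum-free medium with LIF and a pair of inhibitors, PD0325901 against MEK and CHIR99021 against GSK3. ESC-FCS were embryonic stem cells in fetal bovine serum with LIF. NSC were neural stem cells made from the embryonic stem cells by monolayer differentiation, with a sort for GFP-positive cells, and then kept in N2 and B27 medium with EGF and bFGF. Each kind had 48 cells, sorted as small cells with G1 DNA content, in 2 library batches of 24 cells that shared a batch barcode. A separate set of ESC-FCS control cells (48) and a pool of 48 ESC-FCS cells were made on the same day as each other, as a set of their own, and 2 pools of 48 ESC-2i cells were made from purified RNA without spike-ins. No source names more than 1 culture for any of the 3 kinds, so no test between them was possible. Intervals below are exact 95% intervals and cover counting error only.

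In G1, a D cyclin binds Cdk4 or Cdk6, and the active kinase phosphorylates the retinoblastoma protein, which frees E2F factors. These switch on E cyclins, and an E cyclin with Cdk2 carries the cell into S phase. Cdkn1a and Cdkn1b bind these kinase complexes and restrain Cdk2, and mouse embryonic stem cells are known for a short G1 phase in which the kinases are little restrained.

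The main 3′ ends of 7 of the genes are shown because molecules were counted at such ends. Each run gives the 30 transcript bases up to the site that held the most molecules, 5′ to 3′ on the strand of the gene, with a polyadenylation signal (AATAAA or ATTAAA, searched on the transcript strand only) in capitals. The bases come from the GENCODE transcripts on GRCm38. Terminal A bases were trimmed before alignment and the files do not say whether positions start at 0 or 1, so each site is uncertain by a few bases. None of the 10 sites taken as main lay past the end of its annotated transcript. For Ccne2 this was a tie of 1 molecule at each of 2 sites, and the lower coordinate was taken. The other site lay 5595 bases past the end of the gene.
Ccnd1, chr7:144929933-144929962, minus strand: aaaatctagaaAATAAAattggtaaaatct
Ccnd2, chr6:127125166-127125195, minus strand: gctatttggacAATAAActcaccttgacct
Ccnd3, chr17:47599652-47599681, plus strand: tttctatcatgctgccttAATAAAgatttc
Ccne1, chr7:38097987-38098016, minus strand: tcaatttttAATAAAgataatactatcttt
Cdk2, chr10:128697946-128697975, minus strand: gtttgtaaattcATTAAAagaaaatattct
Cdk4, chr10:127067245-127067274, plus strand: ctgggatcttttttatacaggaaaacaaga
Cdkn1a, chr17:29100691-29100720, plus strand: agctggtgctcAATAAAtacttctcgatga

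Of the 10 genes, 8 held one of both signals in this window, beginning 12 to 21 bases before the site. Cdk2 was the one member with ATTAAA, and Cdk4 and Ccne2 held neither. Among genes with at least 20 molecules at the main site, 85.6% of 4327 windows of the same length held one of them (AATAAA in 70.8% and ATTAAA in 16.7%). The share among the 10 genes was near this. The main sites of Cdk6 (19 molecules), Cdkn1b (17) and Ccne2 (1 of 2 molecules) were under that minimum.

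The gene table, from which the authors left out cells of low depth, held 33 ESC-2i, 33 ESC-FCS and 41 NSC cells, 107 of 144 in all. They held 368362, 226683 and 151877 molecules on genes, with medians of 10864, 6375 and 3282 per cell, so NSC values rest on the fewest molecules. The 8 library batches of cells used the same 24 cell barcodes, and 5 of the 6 batch barcodes recurred in more than 1 group of libraries. Summed levels of 8 pluripotency markers were 29.6, 18.8 and 0.132 molecules per 10000 in ESC-2i, ESC-FCS and NSC, and those of 8 neural stem cell markers were 1.96, 1.59 and 54.5. Pou5f1 was thin throughout, with 19 molecules in ESC-2i cells, 4 in ESC-FCS cells and none in NSC or in the ESC-FCS pool, and 6 of the 8 pluripotency markers were at 0 in NSC. Markers of neurons summed to 2.72, 5.21 and 4.48, and each sum was mostly 1 gene. Stmn2 gave 93 of these 100 molecules in ESC-2i and 100 of 118 in ESC-FCS, but none in NSC. There, Map2 gave 59 of 68. Snap25 was at 0 in all 3 populations and Dcx in both embryonic ones. Lists for astrocytes, oligodendrocytes, fibroblasts, primitive endoderm and mesoderm lay between 0 and 0.543 in each population. Although all cells were gated on G1 DNA content, 14 S phase markers summed to 31.6, 39.0 and 13.7 and 14 markers of G2 and M phase to 10.8, 19.2 and 4.87 per 10000 in the same order. The part of these phase markers in the differences below was not tested.

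Levels were compared as the ratio of pooled molecules per 10000. A gene with at least 20 molecules in both populations together was called when the ratio was at least 2 and both library batches of one population lay above both batches of the other. ESC-FCS over ESC-2i could be compared for 7 of the 10 genes. Ccne1 and Cdk6 were called higher in ESC-FCS, beside 7.31% of all 5007 genes compared, and Ccnd3 and Cdkn1a lower, beside 13.6%. In NSC over ESC-2i, 7 genes were compared, of which Ccnd1 and Ccnd2 were higher (17.7% of 4803 genes were) and Ccnd3, Cdk2 and Cdkn1a lower (22.9%). In NSC over ESC-FCS, 6 genes were compared, of which Ccnd1 and Ccnd2 were higher (19.4% of 3600 genes) and Ccne1 and Cdk6 lower (17.3%). The median log2 ratios of the members compared were -0.42, -0.89 and 0.14 in the 3 comparisons, beside -0.065, -0.054 and 0.047 over all genes. These comparisons share populations, and so their values are not independent of each other.

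**Figure D1:**
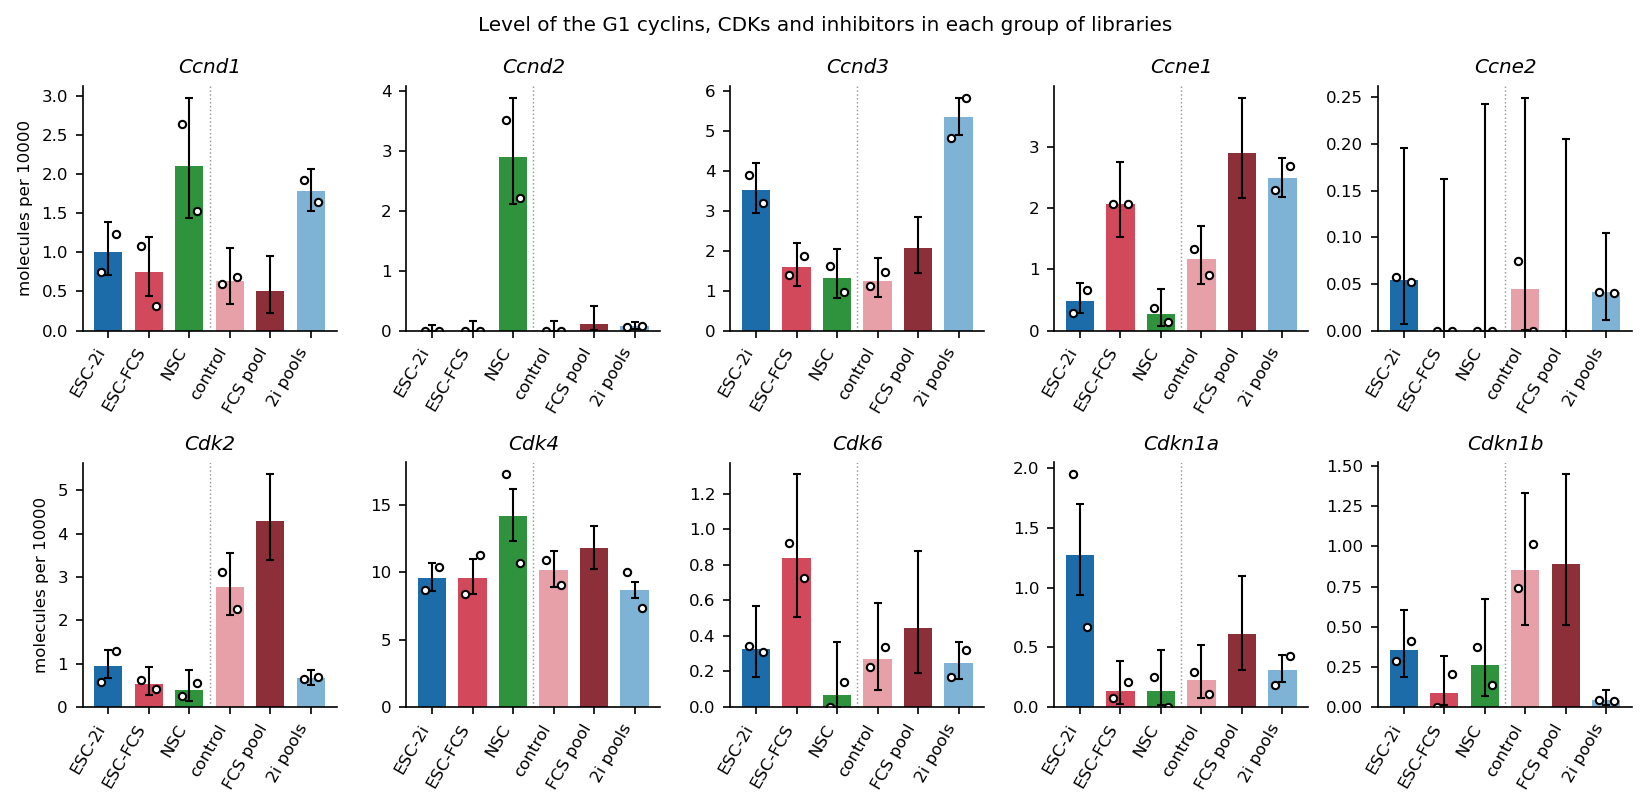
Level of each gene in molecules per 10000 molecules on genes (linear vertical axes from 0, each with its own range) in the 3 populations and, right of the dotted line, in the ESC-FCS control cells and the pools. Bars are pooled levels, error bars exact 95% counting intervals and open points single library batches or single pools, and Ccnd2 stands at 2.90 in NSC against 0 in both kinds of embryonic stem cell, while Cdk4 is the most abundant gene throughout.

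The D cyclins differed between neural and embryonic stem cells. Ccnd2, a partner of Cdk4 and Cdk6, had 44 molecules in NSC and none in ESC-2i or ESC-FCS. Its NSC level was 2.90 per 10000 (2.11 to 3.89), with 3.51 and 2.22 in the 2 batches. A count of 0 allows up to 0.0814 per 10000 in ESC-2i and 0.132 in ESC-FCS. Against these limits (3 molecules), Ccnd2 was at least 35.6-fold higher in NSC than in ESC-2i and at least 21.9-fold higher than in ESC-FCS. With the counting error of the NSC molecules included, the exact lower limits were 27.7-fold and 17.1-fold. Single NSC cells held 0 to 6 molecules with a median of 1, and 23 of 41 cells (56.1%, 39.8 to 71.5%) held at least 1. None of 33 ESC-2i cells did, although their median depth of 10864 molecules was above the 3282 of NSC. Thinned to 1000 molecules per cell, the expected share of cells with Ccnd2 was 22.0% in NSC and 0 in both embryonic populations.

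Ccnd1, the D cyclin best known as a target of mitogen signalling, was present in all 3 populations. ESC-2i cells held 0 to 7 molecules (median 1), ESC-FCS cells 0 to 2 (median 0) and NSC cells 0 to 4 (median 0). Pooled levels were 1.00 per 10000 in ESC-2i (0.707 to 1.38), 0.750 in ESC-FCS (0.437 to 1.2) and 2.11 in NSC (1.44 to 2.97). The batches were 0.745 and 1.24 in ESC-2i, 1.08 and 0.311 in ESC-FCS, and 2.63 and 1.53 in NSC. Both NSC batches thus lay above all 4 others, while the ESC-FCS and ESC-2i batches overlapped. NSC was 2.10-fold higher than ESC-2i (1.27 to 3.46) and 2.81-fold higher than ESC-FCS (1.51 to 5.39), and ESC-FCS over ESC-2i was 0.747 (0.394 to 1.36), not called. Counted in reads instead of molecules, NSC over ESC-2i was 0.940 and ESC-FCS over ESC-2i 0.442, a call. In the second batches alone, NSC over ESC-2i was 1.23, not called, and NSC over ESC-FCS 4.90, on too few molecules for a call. ESC-FCS over ESC-2i was 1.44 in the first batches and 0.251 in the second, where it was called.

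Ccnd3, the third D cyclin, was the main one of embryonic stem cells. It had 130 molecules in ESC-2i cells, 36 in ESC-FCS cells and 20 in NSC. Single cells held 0 to 9 (median 4), 0 to 5 (median 1) and 0 to 2 (median 0), and 31 of 33, 19 of 33 and 15 of 41 cells held at least 1. Levels were 3.53 per 10000 in ESC-2i (2.95 to 4.19), 1.59 in ESC-FCS (1.11 to 2.20) and 1.32 in NSC (0.804 to 2.03). The ESC-2i batches (3.90 and 3.20) lay above those of ESC-FCS (1.38 and 1.87) and NSC (1.63 and 0.971). ESC-FCS was 2.22-fold lower than ESC-2i (1.53 to 3.31) and NSC 2.68-fold lower (1.67 to 4.53), and NSC over ESC-FCS was 0.829 (0.455 to 1.47). In the second batches alone, ESC-FCS over ESC-2i was 0.584, and in reads 0.557, both under the 2-fold needed. Scaled to ERCC spike-in molecules, which moved the median gene of ESC-FCS over ESC-2i up by 1.04 on the log2 scale, the Ccnd3 ratio was 0.927 and its call ended. The same scaling moved the median of NSC over ESC-2i by -0.30 and of NSC over ESC-FCS by -1.34, and with it Ccnd1 stood at 1.71 and 1.11, with no call in either.

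Summed, the D cyclins stood at 4.53 per 10000 in ESC-2i (3.87 to 5.28), 2.34 in ESC-FCS (1.75 to 3.06) and 6.32 in NSC (5.12 to 7.72). ESC-FCS was 1.94-fold lower than ESC-2i (1.42 to 2.69), with all 4 batch pairs between 0.469 and 0.554. These sums were scaled to molecules on genes only. Spike-in scaling was not applied to them. It moved the median gene of this comparison up by 1.04 on the log2 scale, a shift at least as large as the 1.94-fold difference. Under it the call of Ccnd3, the largest part of both embryonic sums, ended. NSC was 1.39-fold higher than ESC-2i (1.07 to 1.80), a difference that ranged over batch pairs from 1.02 to 1.75. Ccnd3 made up 77.8% of D cyclin molecules in ESC-2i (70.8 to 83.9%) and 67.9% in ESC-FCS (53.7 to 80.1%), but 20.8% in NSC (13.2 to 30.3%). In NSC, Ccnd2 gave 45.8% (35.6 to 56.3%) and Ccnd1 33.3% (24.0 to 43.7%), and the Ccnd2 share was 45.2% and 47.1% in the 2 batches.

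**Figure D2:**
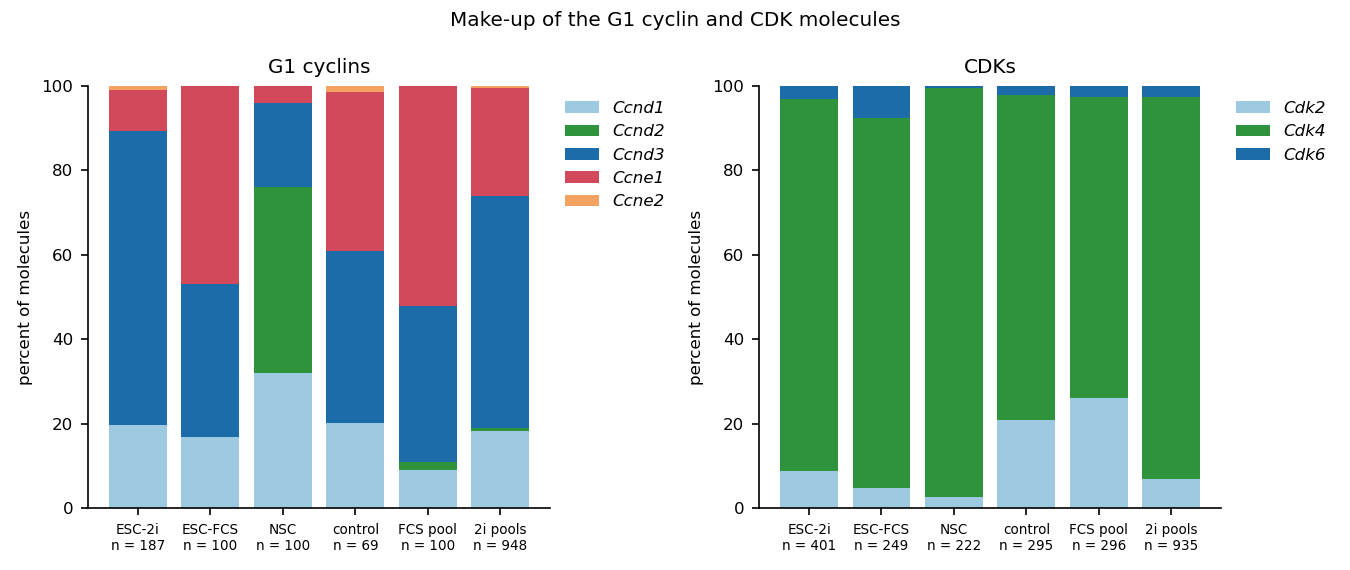
Share of each cyclin among G1 cyclin molecules (left) and of each kinase among CDK molecules (right), in percent, for the 3 populations, the control cells and the pools, with the number of molecules under each bar. The largest cyclin share is that of Ccnd3 in ESC-2i, of Ccne1 in ESC-FCS and of Ccnd2 in NSC, and Cdk4 makes up at least 71.3% of kinase molecules in every bar.

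The D cyclins seen together were also counted cell by cell. In ESC-2i, all 17 cells with Ccnd1 also held Ccnd3, 14 held Ccnd3 alone and 2 neither. Ccnd3 was seen in 31 of all 33 ESC-2i cells, so few cells could hold Ccnd1 without it. In ESC-FCS, 6 cells held both, 6 Ccnd1 alone, 13 Ccnd3 alone and 8 neither. For Ccnd1 and Ccnd2 in NSC, whatever their Ccnd3, 14 cells held both, 4 Ccnd1 without Ccnd2, 9 Ccnd2 without Ccnd1 and 14 neither. Cells with both held more molecules in all than cells with neither (medians of 3972 and 2314 in NSC and 12966 and 6059 in ESC-2i with Ccnd1 and Ccnd3), and the part of depth in these counts was not tested. In NSC, 7 of 41 cells held all 3 D cyclins and 8 held none.

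Ccne1, the cyclin that activates Cdk2 at the end of G1, had 47 molecules in ESC-FCS, 18 in ESC-2i and 4 in NSC. Single cells held 0 to 6 molecules in ESC-FCS (median 1), 0 to 4 in ESC-2i (median 0) and 0 to 1 in NSC (median 0). Its level was 2.07 per 10000 in ESC-FCS (1.52 to 2.76), 0.489 in ESC-2i (0.290 to 0.772) and 0.263 in NSC (0.0718 to 0.674). Both ESC-FCS batches stood at 2.07, above the ESC-2i batches (0.287 and 0.670) and the NSC batches (0.376 and 0.139). ESC-FCS was 4.24-fold higher than ESC-2i (2.42 to 7.76), and NSC was 7.87-fold lower than ESC-FCS (2.88 to 30.1). NSC over ESC-2i was 0.539 (0.133 to 1.64), with batches that overlapped. Both ESC-FCS calls for Ccne1 were kept in each batch alone and under spike-in scaling (8.74 over ESC-2i).

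Among all G1 cyclin molecules, Ccne1 was 9.63% in ESC-2i (5.81 to 14.8%), 47.0% in ESC-FCS (36.9 to 57.2%) and 4.00% in NSC (1.10 to 9.93%). The sum of the 5 G1 cyclins was 5.08, 4.41 and 6.58 per 10000, and ESC-FCS over ESC-2i was 0.869 for this sum (0.675 to 1.11). Ccne2, the second E cyclin, had 2 molecules in ESC-2i and none in ESC-FCS or NSC, where a count of 0 allows up to 0.132 and 0.198 per 10000. It was too rare for any comparison.

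The kinases were led by Cdk4, the partner of the D cyclins, which had 354 molecules in ESC-2i, 218 in ESC-FCS cells and 215 in NSC. Every ESC-2i cell held it (3 to 24 molecules, median 9), as did every NSC cell (1 to 16, median 4) and 32 of 33 ESC-FCS cells (0 to 22, median 5). Levels were 9.61 (8.64 to 10.7) and 9.62 (8.38 to 11.0) per 10000 in ESC-2i and ESC-FCS, a ratio of 1.00 with an interval from 0.841 to 1.19. NSC stood at 14.2 (12.3 to 16.2), 1.47-fold above ESC-2i (1.24 to 1.75) and 1.47-fold above ESC-FCS (1.21 to 1.79), under the 2-fold needed for a call. The NSC batches differed from each other (17.3 and 10.7), and batch pairs with ESC-2i ranged from 1.03 to 1.99. Batch pairs with ESC-FCS (8.37 and 11.3) ranged from 0.945 to 2.07, so NSC and ESC-FCS batches overlapped. Per ERCC molecule, Cdk4 of ESC-FCS over ESC-2i was 2.06, close to the shift of the median gene.

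Cdk2, the partner of the E cyclins, had 35 molecules in ESC-2i cells, 12 in ESC-FCS cells and 6 in NSC. Cells held 0 to 7 (median 1), 0 to 2 (median 0) and 0 to 2 (median 0). Levels were 0.95 (0.662 to 1.32), 0.529 (0.274 to 0.925) and 0.395 (0.145 to 0.860) per 10000. NSC was 2.41-fold lower than ESC-2i (1.00 to 7.00), with batches of 0.251 and 0.555 against 0.573 and 1.29. This call rested on 6 NSC molecules. In reads the ratio was 0.678 and the call was lost. It was also lost with the ratio kept in the first batches alone (0.437, too few molecules) and when cells were weighted equally (0.471, batches no longer apart). ESC-FCS over ESC-2i was 0.557 (0.263 to 1.10), with overlapping batches, and was called lower in the second batches alone.

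Cdk6, the other partner of the D cyclins, had 19 molecules in ESC-FCS, 12 in ESC-2i and 1 in NSC. The highest cell held 4, 3 and 1, the medians were 0, and 11 of 33, 6 of 33 and 1 of 41 cells held any. Its level was 0.838 per 10000 in ESC-FCS (0.505 to 1.31), with batches of 0.921 and 0.726, and 0.326 in ESC-2i (0.168 to 0.569), with batches of 0.344 and 0.309. ESC-FCS was thus 2.57-fold higher than ESC-2i (1.19 to 5.81), a call on 31 molecules. Each batch alone gave a like ratio (2.68 and 2.35) on too few molecules for a call. The single NSC molecule gave a ratio to ESC-FCS of 0.0786 with a counting interval from 0.00189 to 0.494, and with cells weighted equally the ratio was 0.126, with batches no longer apart. Among CDK molecules, Cdk4 made up 88.3% in ESC-2i (84.7 to 91.3%), 87.6% in ESC-FCS (82.8 to 91.4%) and 96.8% in NSC (93.6 to 98.7%).

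Of the inhibitors, Cdkn1a, a p53 target that binds cyclin and CDK complexes, was highest in the ESC-2i cells among the 3 populations. It had 47 molecules there, 3 in ESC-FCS and 2 in NSC. ESC-2i cells held 0 to 7 molecules (median 1), ESC-FCS cells 0 to 1 and NSC cells 0 to 2 (medians 0), and 22 of 33, 3 of 33 and 1 of 41 cells held any. Thinned to 1000 molecules per cell, the expected shares of cells with Cdkn1a were 11.7%, 0.925% and 1.23%. Its level was 1.28 per 10000 in ESC-2i (0.938 to 1.70), 0.132 in ESC-FCS (0.0273 to 0.387) and 0.132 in NSC (0.0160 to 0.476). The ESC-2i batches differed (1.95 and 0.670), yet both lay above those of ESC-FCS (0.0768 and 0.207) and NSC (0.251 and 0). ESC-FCS was 9.64-fold lower (3.10 to 48.4), and the NSC ratio to ESC-2i was 0.103 (0.0121 to 0.394). The second batches alone held too few molecules for either call, with ESC-FCS over ESC-2i at 0.309. The ESC-2i pools described below stood at 0.308 per 10000, 4.14-fold below the ESC-2i cells and below the ESC-FCS pool (0.614).

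Cdkn1b, the inhibitor that holds Cdk2 in resting cells, was rare, with 13 molecules in ESC-2i, 2 in ESC-FCS cells and 4 in NSC. No cell held more than 2 molecules, and 12 of 33, 2 of 33 and 4 of 41 cells held any. Levels were 0.353 (0.188 to 0.604), 0.0882 (0.0107 to 0.319) and 0.263 (0.0718 to 0.674) per 10000, too few molecules for a call between the 3 populations. Summed, the 2 inhibitors stood at 1.63 per 10000 in ESC-2i, at 0.221 in ESC-FCS and at 0.395 in NSC. ESC-FCS was 7.39-fold lower than ESC-2i (3.00 to 23.6). This sum did not keep its direction in the other libraries described below, at a ratio of 0.661 for the ESC-FCS control cells over ESC-2i (0.393 to 1.08) and 4.32 in the pools (2.51 to 7.37).

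**Figure D3:**
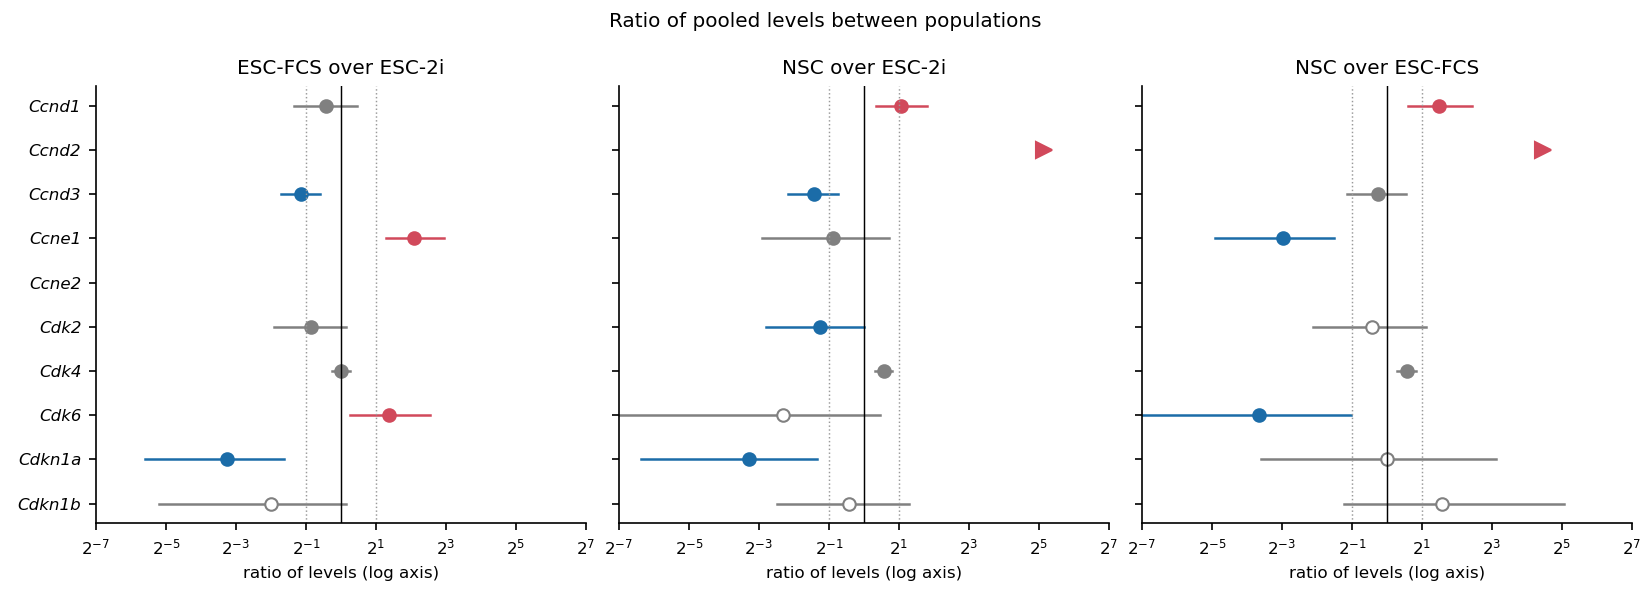
Ratio of pooled levels for each gene in the 3 comparisons (log axis, base 2) with exact 95% counting intervals, where red and blue mark genes called higher and lower, gray those not called, open points genes with fewer than 20 molecules, triangles the level over a floor of 3 molecules, and dotted lines 2-fold, with intervals clipped at the ends of the axis. Ccnd3 and Cdkn1a lie left of the line in both comparisons with ESC-2i, and the Ccnd2 triangles lie at 35.6 and 21.9.

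Ranked within a population, Cdk4 came first in all 3, and its ratio to the second gene excluded 1. Ccnd3 followed in ESC-2i, apart from the next 3 genes (Cdkn1a, Ccnd1 and Cdk2), whose neighbours could not be told apart. In ESC-FCS the next genes after Cdk4, Ccne1 and Ccnd3, had overlapping levels (ratio interval 0.828 to 2.07), as did Ccnd2 and Ccnd1 in NSC (0.852 to 2.24). Below the D cyclins in NSC, no neighbouring genes of the other 6 were apart. ESC-2i cells held a median of 5 of the 10 genes and 17 molecules of them, ESC-FCS cells 3 genes and 9 molecules, and NSC cells 2 genes and 6 molecules. Scaled to depth, the 10 genes together made up 17.6, 15.6 and 21.6 per 10000 molecules in the same order.

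**Figure D4:**
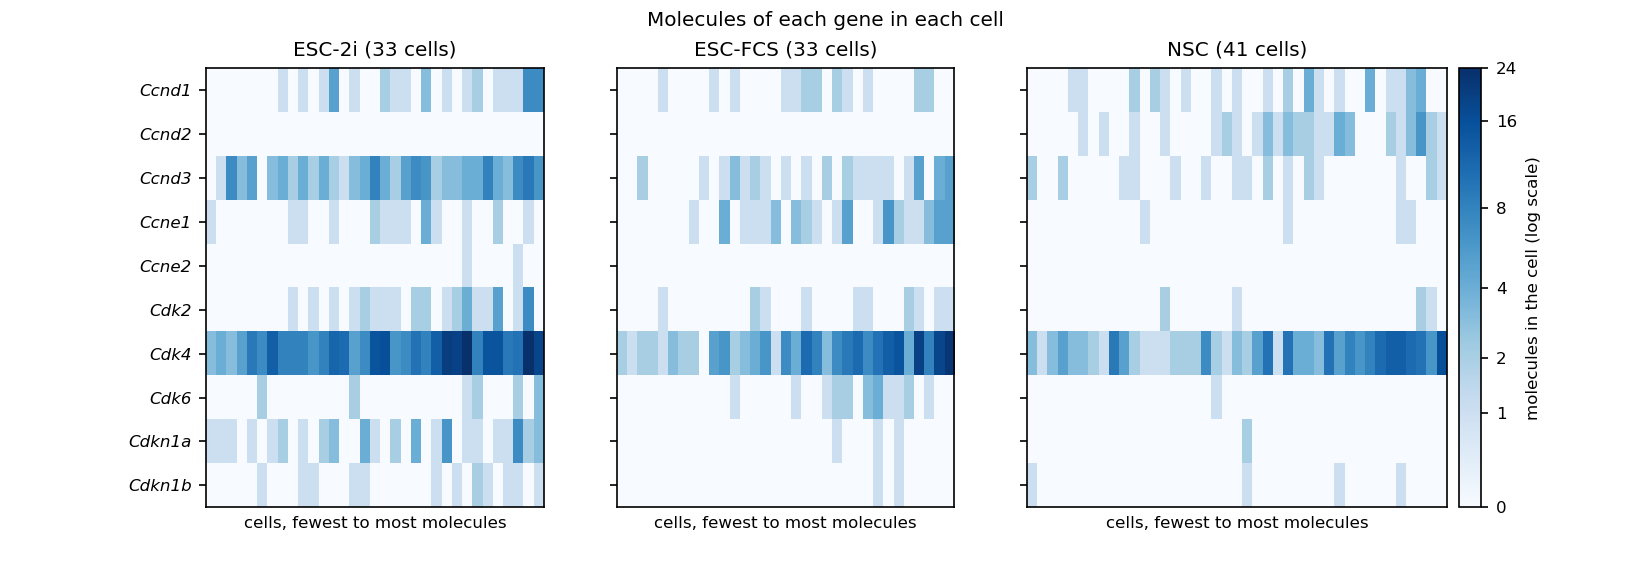
Molecules of each gene in each cell (color, log scale of the count plus 1) for ESC-2i, ESC-FCS and NSC, with cells ordered from the fewest to the most molecules in all. Cdk4 is seen in nearly all cells, Ccnd3 in 31 of 33 ESC-2i cells and fewer of the others, Cdkn1a mostly in ESC-2i, and Ccnd2 in 23 NSC cells and no embryonic stem cell.

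Whether a gene varied between the cells of 1 population was tested against the noise of the ERCC spike-ins plus a margin of 0.25 in squared coefficient of variation (CV2), with a chi-square test and Benjamini-Hochberg adjustment. No member passed an adjusted p of 0.1, among 5 that could be tested in ESC-2i cells, 3 in ESC-FCS cells and 4 in NSC. Of all genes tested, 0.719% of 3616 passed in ESC-2i, 3.85% of 2026 in ESC-FCS and 2.16% of 1157 in NSC, so a count of 0 among so few members is near this background. At an unadjusted p under 0.05 none of the members passed, while 100, 176 and 74 genes did. Cdk4 had a CV2 of 0.142 in ESC-2i against a technical value of 0.144, and 0.242 against 0.288 in ESC-FCS. Those of Ccnd3 were 0.353 against 0.347 in ESC-2i, 2.30 against 1.41 in ESC-FCS (unadjusted p = 0.0686, adjusted p = 0.678) and 3.64 against 2.45 in NSC (0.0671 and 0.961). For Ccnd2 in NSC the values were 1.65 and 1.70. A fit of the noise without its least abundant spike-in, added after the data were seen, called 121 genes in NSC, among them Ccnd3 (adjusted p = 0.0223).

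The separately made libraries allowed the serum against 2i comparison to be read again. Of the ESC-FCS control cells, 42 of 48 had at least 1000 molecules, with 223055 molecules. Against the ESC-2i cells, Ccne1 (2.39-fold, 1.26 to 4.62), Cdk2 (2.93-fold, 1.90 to 4.56) and Cdkn1b (2.41-fold, 1.13 to 5.32) were called higher in the control cells, beside 17.6% of 5150 genes. Ccnd3 (2.81-fold) and Cdkn1a (5.69-fold) were called lower, beside 17.6% as well. The direction of Ccnd3, Ccne1 and Cdkn1a was therefore the same with both sets of ESC-FCS cells, whereas Cdk6 turned to 0.826 (0.254 to 2.38). Both readings share the ESC-2i cells.

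Pools of 48 cells gave another reading, in libraries of 179155 (ESC-FCS) and 479483 and 494799 molecules (ESC-2i). In these, fewer cells of a kind and less RNA per cell cannot be told apart. The 2 ESC-2i pools differed by more than counting error (chi-square of 41642 on 7204 degrees of freedom). Intervals on their sum, which cover counting error only, are therefore too narrow. Ccnd3 was 2.07 per 10000 in the ESC-FCS pool and 4.84 and 5.84 in the ESC-2i pools, 2.59-fold lower (ratio 0.386, 0.269 to 0.539). Ccnd1 was 0.502 against 1.92 and 1.64, 3.54-fold lower (ratio 0.283, 0.127 to 0.550). Both were called, beside 31.7% of 8013 genes lower. Cdk2 (4.30 against 0.647 and 0.687, 6.44-fold) and Cdkn1b (0.893 against 0.0417 and 0.0404, 21.8-fold, 7.02 to 89.4) were called higher, beside 19.4%. Summed D cyclins were 2.69-fold lower in the ESC-FCS pool (2.00 to 3.68) and 2.41-fold lower in the control cells than in ESC-2i (1.71 to 3.46).

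Other members did not keep their reading in the pools. Ccne1 was 2.90 in the ESC-FCS pool and 2.29 and 2.69 in the ESC-2i pools, a ratio of 1.16 (0.845 to 1.58), and the ESC-2i pools stood 5.10-fold above the ESC-2i cells (3.16 to 8.76). Cdkn1a was 0.614 in the ESC-FCS pool against 0.188 and 0.424, a ratio of 1.99 (0.902 to 4.09) in the opposite direction to the cells, and the ESC-2i pools were 4.14-fold below the ESC-2i cells. The ESC-2i pools differed from the cells in phase markers too, with S phase markers at 57.9 against 31.6 and G2 and M phase markers at 27.4 against 10.8 per 10000. The ESC-FCS pool had 60.7 and 26.8. The part of these markers, and of the purification of RNA that only the ESC-2i pools had, was not tested. Ccnd2 had 7 molecules in the ESC-2i pools (0.0719 per 10000) and 2 in the ESC-FCS pool, and Olig1 and Olig2 were at 0 in all 3 pools.

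**Figure D5:**
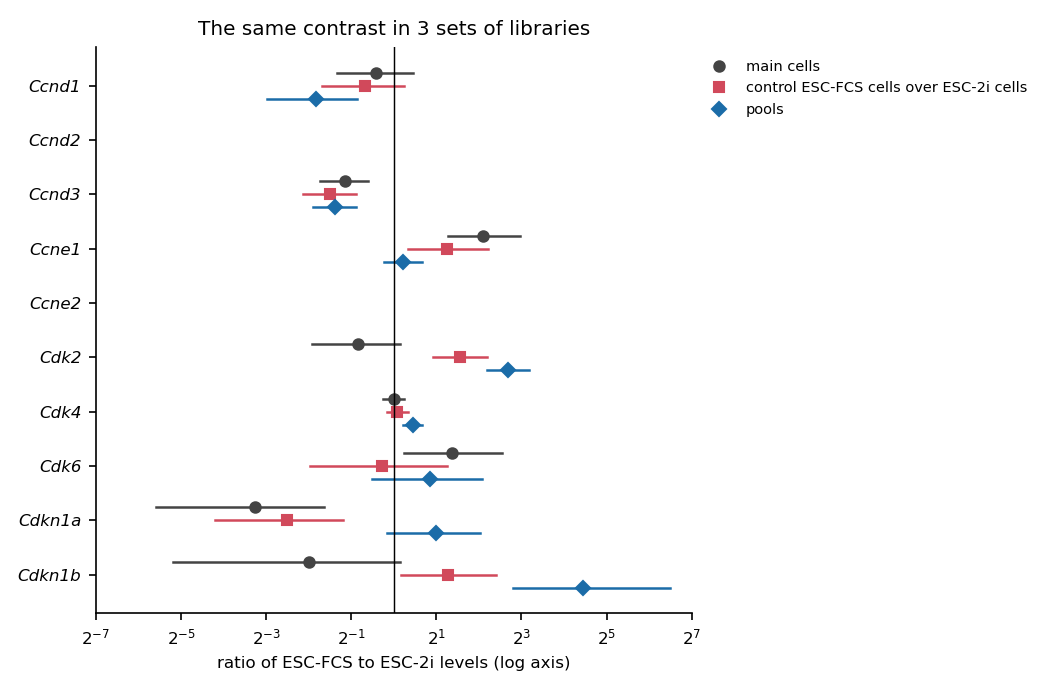
Ratio of ESC-FCS to ESC-2i levels (log axis, base 2) with exact 95% counting intervals, for the main cells, for control ESC-FCS cells over the same ESC-2i cells, and for pools, leaving out genes with fewer than 15 molecules in a comparison or at 0 on one side. Ccnd3 lies between 0.356 and 0.450 in all 3, Cdk2 and Cdkn1b lie left of 1 in the main cells and right of it in the other sets, and Cdkn1a lies right of 1 in the pools.

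Cdk2 and Cdkn1b differed between ESC-FCS libraries themselves. Cdk2 was 2.78 per 10000 in the control cells (2.13 to 3.56, batches of 3.12 and 2.26) against 0.529 in the main ESC-FCS cells, 5.25-fold higher (2.80 to 10.7). Cdkn1b was 0.852 (batches of 0.743 and 1.02) against 0.0882, 9.66-fold higher (2.33 to 85.5). Both were called, beside 14.8% of 4064 genes higher, and Cdk6 was called 3.12-fold lower, beside 8.66%. A ratio at least as far in the same direction was seen in 1.21% of these genes for Cdk2 and in 0.345% for Cdkn1b. S phase markers stood at 48.9 per 10000 in the control cells and 39.0 in the main ESC-FCS cells, and their part was not tested. The main and control ESC-FCS cells share the kind of medium, and their cultures and library sets cannot be told apart. Cdk4, at 10.2 against 9.62 (ratio 1.06, 0.875 to 1.28), was close between them.

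Other genes of the G1 pathway were taken from a list of 56 genes, 55 of which were in the table. In ESC-FCS over ESC-2i, 4 of 25 compared were called higher and 6 lower, in NSC over ESC-2i 4 of 23 higher and 6 lower, and in NSC over ESC-FCS 5 of 19 higher and 8 lower. Over all genes compared, 7.31% were called higher and 13.6% lower in the first comparison, 17.7% and 22.9% in the second, and 19.4% and 17.3% in the last. The list medians were 0.20, -0.46 and -0.47 on the log2 scale, beside -0.065, -0.054 and 0.047 over all genes. Among E2F factors and pocket proteins, E2f4, a repressive E2F, was 3.05-fold lower in NSC than in ESC-FCS (1.46 to 7.14). Cdkn1c, an inhibitor of the Cdkn1a family, had 3 molecules in ESC-2i cells, 32 in ESC-FCS cells and 3 in NSC. Its batches were 2.15 and 0.415 per 10000 in ESC-FCS and 0.115 and 0.0516 in ESC-2i. It was 17.3-fold higher in ESC-FCS than in ESC-2i (5.42 to 88.5), with batch pairs from 3.62 to 41.7. In the pools it was the other way round, with 553 molecules in the ESC-2i pools (5.68 per 10000) and 4 in the ESC-FCS pool (0.223). Cks1b, a CDK subunit needed for the degradation of Cdkn1b, was 5.18-fold higher in ESC-FCS than in ESC-2i (2.91 to 9.73) and 4.88-fold lower in NSC than in ESC-FCS. Wee1, a kinase that inhibits CDKs, was 3.25-fold higher in ESC-FCS than in ESC-2i (1.56 to 7.13) and 5.36-fold lower in NSC than in ESC-FCS (1.63 to 27.8).

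Ccng1, a cyclin induced by p53, had 231 molecules in ESC-2i cells, 71 in ESC-FCS cells and 4 in NSC. It was 2.00-fold lower in ESC-FCS (1.53 to 2.65) and 23.8-fold lower in NSC than in ESC-2i (9.18 to 88.1). The control ESC-FCS cells, at 5.96 per 10000, were close to the 6.27 of ESC-2i, so the difference between the embryonic populations was not seen there. Mdm2, the ubiquitin ligase of p53 and itself a p53 target, was 2.44-fold lower in ESC-FCS (1.53 to 4.03) and 3.41-fold lower in NSC than in ESC-2i (1.82 to 7.07). Its level was 1.39 in the control cells, against 2.47 in ESC-2i. Trp53, which encodes p53, was 3.06-fold lower in NSC than in ESC-FCS (1.90 to 5.17). It was 1.71-fold higher in ESC-FCS than in ESC-2i (1.27 to 2.31), under the 2-fold needed, and stood higher in the control cells (10.1 per 10000) than in the main ESC-FCS cells (4.24).

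Of the later cyclins and kinases, Ccna2 (S phase) was 7.01-fold lower in NSC than in ESC-2i and its ratio to ESC-FCS was 0.0746 (0.00874 to 0.288), on 2 NSC molecules. NSC also had the lowest S phase markers (13.7 per 10000), whose part was not tested. Cdk1, the mitotic kinase, was 4.15-fold lower in NSC than in ESC-FCS (1.60 to 13.7). Ccnl2, a cyclin linked to splicing, was 3.62-fold lower in ESC-FCS than in ESC-2i (1.69 to 8.86) and 4.66-fold higher in NSC than in ESC-FCS (2.04 to 12.0). Cdk8 and Ccnc belong to the kinase module of Mediator. Cdk8 was 4.63-fold higher in NSC than in ESC-2i (2.13 to 10.6), and Ccnc was 2.29-fold lower in ESC-FCS than in ESC-2i with an interval that held 1 (0.966 to 6.24). In ESC-FCS over ESC-2i, Cdk8 was 0.739 (0.201 to 2.31), on 5 and 11 molecules, too few for a comparison.

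Over the 6 library batches, which come from 3 cultures and differ in depth, the genes whose levels ran most like Ccnd1 among 2755 compared were Iars2 (Pearson r = 0.988), Smap1 (0.983) and Cops2 (0.983). Those most like Ccnd3 were Cdkn1a (0.977), Ostf1 (0.971) and Chchd5 (0.969). Cdkn1a batches ran from 1.95 and 0.670 in ESC-2i to 0.251 and 0 in NSC, and those of Ccnd3 from 3.90 and 3.20 to 1.63 and 0.971. Ccnd2, with 44 molecules, was under the minimum of 50 for this ranking.

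The 3′ ends of most members were single. For the 8 members with at least 20 molecules, the median share of molecules at the main site was 96.5%, beside 81.0% over all 6063 such genes. It was 98.4% for Ccnd3 (183 of 186 molecules), 98.6% for Ccne1, 98.1% for Cdkn1a, 96.7% for Cdk4 and 96.2% for Cdk2. In the cells of the 3 populations, no member had a second site with at least 10 molecules and 5% of the gene, against 21.3% of all genes, so a switch between sites could not be measured for any of them. Ccnd2 (21 of 44 molecules), Cdk6 (19 of 32) and Ccnd1 (67 of 86) were the most spread. Of the other Ccnd2 molecules, 7 lay at a site 3713 bases before the end of the gene and none of its remaining sites held more than 4.

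The ends of Ccnd1 and Cdk6 differed between library sets. The main Ccnd1 site held 75.7% of molecules in ESC-2i cells (58.8 to 88.2%), 82.4% in ESC-FCS and 78.1% in NSC, but 48.6% in the ESC-2i pools (40.9 to 56.3%). It held 7 of 14 molecules in the ESC-FCS control cells (23.0 to 77.0%) and 8 of 9 in the ESC-FCS pool (51.8 to 99.7%). The interval of the main ESC-FCS cells (56.6 to 96.2%) overlapped both. A site 20 bases before it, past the 12 bases within which sites were matched, held 19 molecules in the ESC-2i pools and 2 in the control cells. In the ESC-2i pools, 26 of 173 molecules (15.0%) lay at a site 1818 bases before the main one, which held 3 molecules in the ESC-2i cells. For Cdk6, 8 of 12 molecules in ESC-2i cells and 11 of 19 in ESC-FCS cells ended at the main site, against 0 of 6 in the control cells, 0 of 8 in the ESC-FCS pool and 3 of 24 in the ESC-2i pools. In the pools a site 9931 bases upstream took 7 of 8 and 12 of 24 molecules. The same site held 3 of 12 molecules in ESC-2i cells, 2 of 19 in ESC-FCS cells and 1 of 6 in the control cells. Both windows are printed to compare the signal, in capitals, which the main site has and the upstream site lacks. Libraries processed apart were matched within 12 bases, and the part of that matching in these differences was not tested.
Cdk6 main site, chr5:3530965-3530994, plus strand: ccatttgtacttcttacAATAAAaatgtca
Cdk6 upstream site, chr5:3521034-3521063, plus strand: tggaaaacttccagaagaagagaagctgct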

How the data were processed

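BATSeq 3′ ends were measured in 195 libraries of single cells and pools. Per the study's methods, the authors trimmed terminal As, aligned reads to GRCm38 with GSNAP, removed reads before genomic A stretches, merged molecular barcodes, and deposited counts of molecules per site and gene, with read counts beside them. The submitters' processing notes also name HTSeq and R 3.0.2. All count columns were mapped to samples (0 not mapped), and 4 of 2111752 entries of the gene table differed from the sum of sense sites. The cells of the 3 populations are those in the authors' gene table, for which the study gives a minimum of 1000 molecules. The same minimum was set on control cells, and applying it anew to all cells (an alternative) gave a slightly different set of ESC-FCS cells. Levels are molecules per 10000 on genes with exact Poisson intervals, ratios have exact conditional binomial intervals, and shares Clopper-Pearson intervals (95%), for counting error only. Groups at 0 were set to a floor of 3 molecules. Variance between cells was tested by chi-square against ERCC noise (the method of Brennecke and colleagues), with p-values adjusted over all genes tested. Fold and variance scripts were tested on simulated data. Members and lists were chosen with earlier results of these data known. All members are named. Other pathway genes are named where called in a comparison on at least 30 molecules, 12 at most by ratio, and the 3 genes most like each D cyclin of at least 50 molecules. Cdkn1c, Ccng1, Mdm2 and Trp53 values in other libraries, the Ccnd2 site and Pou5f1 were added after seeing the values. Alternatives covered cell filters, scaling, thinning, reads, single batches, minimum molecules, fold and the spike-in fit. The 2 ESC-2i pools differed (chi-square of 41642 on 7204 degrees of freedom) and were summed. Python 3.11.15, numpy 2.4.6, pandas 2.3.3, scipy 1.17.1, statsmodels 0.14.6 and matplotlib 3.10.9 were used.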

Additional observations from a re-analysis of the deposited data

Results flagged for a closer look

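The ESC-FCS over ESC-2i ratio of Cdkn1a went opposite ways in single cells and pools, at 0.104 in the main cells, where both ESC-FCS batches lay below both ESC-2i batches, and 1.99 in the pools, where the ESC-FCS pool lay above both ESC-2i pools. The interval of the Cdkn1a ratio in the pools held 1 (0.902 to 4.09). That of Cdkn1b was 0.25 in the main cells and 21.8 in the pools. The Cdkn1b ratio in the main cells rested on 2 and 13 molecules, too few for a call, and its interval held 1 (0.0274 to 1.10). With the ESC-FCS control cells in place of the main ESC-FCS cells, the Cdkn1b ratio was 2.41. In each case all libraries or batches of one set lay on one side and all of the other set on the opposite side. These differences were not tested.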

How the results depend on the processing

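Among 200 alternative ratios of members from the same libraries, single batches left out, 185 stayed within the counting interval, 14 moved and 1 reversed. The reversed one was Ccnd1 in NSC over ESC-2i counted in reads (0.940). With single batches and other libraries included, 229 of 274 stayed, 40 moved and 5 reversed. In other libraries the ESC-FCS over ESC-2i ratio reversed for Cdk6 with control cells (0.826) and for Cdkn1a in the pools (1.99, and from 1.45 to 3.27 with 1 ESC-2i pool left out). Cdk2, not called in the main cells (0.557), was called higher with control cells (2.93) and in the pools (6.44), and Cdkn1b, too rare there (0.25), likewise (2.41 and 21.8). Of 127 alternative counts of members called between populations or variable between cells, 104 were within 1.5 times of the reported count. In ESC-FCS over ESC-2i, members called lower went from 2 to 1 per ERCC molecule and at 3-fold, and those called higher from 2 to 1 in either batch alone, with at least 50 molecules, at 3-fold and without ESC-2i pool replicate 1 in the pools. In NSC over ESC-2i, members called higher went from 2 to 1 per ERCC molecule, in reads, with at least 50 molecules and at 3-fold, and to 0 in the second batches alone, and those called lower from 3 to 1 with at least 50 molecules and at 3-fold. In NSC over ESC-FCS, members called higher went from 2 to 1 per ERCC molecule and at 3-fold and to 0 in the second batches alone and with at least 50 molecules, and those called lower from 2 to 1 in the mean of cells, in either batch alone and with at least 50 molecules. A stricter minimum compared fewer genes. In single batches Ccnd2, Cdk6 and, over ESC-FCS, Ccnd1 had under 20 molecules in the comparisons named, and their ratios stayed over 2-fold (Ccnd2 at least 14.3 and 7.13 in the second batches). The cause of the other shifts was not tested. Without the least abundant spike-in in the noise fit, members called variable in NSC went from 0 to 1. Over the alternatives, genes called higher in ESC-FCS over ESC-2i ranged from 107 to 2300 (366 as reported) and lower from 154 to 2544 (681). Those higher in NSC over ESC-2i ranged from 257 to 2318 (849) and lower from 423 to 3072 (1101), and those higher in NSC over ESC-FCS from 190 to 2231 (699) and lower from 194 to 2156 (622). Genes called variable ranged from 9 to 117 for ESC-2i (26 as reported), from 36 to 269 for ESC-FCS (78) and from 16 to 121 for NSC (25). Alternatives for the share of a distal site were not run because no member had 2 sites with enough molecules. No paired analysis was possible because cells and pools carry numbers that pair no samples across groups and no test between groups was made. With 1 culture per population and few molecules for Ccne2, Cdk6 and the inhibitors, depth set what could be compared.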
